A study of Mus musculus with 8 samples.

Results

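Imprinted genes, those transcribed mainly from the copy inherited from one particular parent, were described in nascent RNA of mouse embryonic stem cells whose own CTCF can be degraded. The genes are those of a list of 49 imprinted genes in 19 clusters, found by gene symbol in the deposited expression table. Of these, 35 genes in 17 clusters had a row among the 16940 genes of the table, and 33 had a mean of at least 10 normalized reads over the 8 libraries and were tested. Zim1 and Peg10 lay below that mean and are given by their values alone. The remaining 14 genes of the list, H19, Igf2, Dlk1, Rtl1, Snrpn, Magel2, Asb4, Nnat, Nespas, Mcts2, Peg13, Kcnk9, Commd1 and Rasgrf1, were not found by symbol and are not analysed here under those names. Of these, only Nespas was present under its Ensembl identifier, with the name Gnasas1.

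Imprinted genes lie in clusters that share an imprinting control region, a stretch of DNA methylated on the maternal or on the paternal copy. At some clusters the unmethylated copy is bound by CTCF, a zinc finger protein that stops loop extrusion by cohesin and can separate enhancers from promoters, with the H19 and Igf2 cluster as the textbook case. At other clusters the unmethylated copy starts a long noncoding RNA, such as Kcnq1ot1 or Airn, that silences neighbouring genes on its own chromosome. From background knowledge, 6 of the 19 clusters were marked as having reported CTCF binding at the control region or a differentially methylated region, those of H19, Dlk1-Meg3, Kcnq1ot1, Grb10, Peg13 and Rasgrf1. This marking is not complete, and CTCF may bind such regions of other clusters too. Genes with a row belonged to 4 of these 6 (Dlk1-Meg3, Kcnq1ot1, Grb10 and Peg13) and numbered 14. The table does not separate the parental copies, so each value below is the sum over both. Whether any gene of the list was imprinted in these cells was not tested.

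Nascent RNA was measured by transient transcriptome sequencing (TT-seq), in which cells take up 4-thiouridine for a short pulse, here 400 µM for 15 min, and labelled RNA is captured and sequenced. The cells were of the E14 line, grown without serum on gelatin with leukemia inhibitory factor and the inhibitors PD0325901 and CHIR99021. In every group CTCF carried an auxin-inducible degron (AID), which lets the auxin IAA trigger its degradation. No group without the degron received IAA, so effects of IAA itself and of CTCF loss cannot be told apart. The 4 groups, with 2 libraries each, were an overexpression control line without IAA (untreated control), the same line after 12 h of IAA (IAA control), and lines overexpressing wild-type CTCF or a mutated CTCF, each after 12 h of IAA. The labels do not name the mutation, do not say whether a line is a single clone, and put CTCF overexpression without IAA in none of the samples analysed here. They do not say either whether replicates came from separate cultures, so the p-values measure only the spread between these libraries. Each CTCF form was present only in its own line, so the form, the line and the level of overexpression cannot be told apart. Differences between the CTCF forms below are differences between these lines. Values in the text are normalized reads, in the order replicate 1 and replicate 2.

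Depth ran from 15671114 to 21561141 implied reads per library, and Pearson's r between replicates across genes was 0.995 to 0.996. The chi-square per degree of freedom between replicates, on implied reads, was 3.07 with wild-type CTCF and 1.30 to 1.57 in the other groups, where 1 is counting error alone, and the median absolute difference was 0.10 and 0.08 to 0.09 on the log2 scale, while the fit uses 1 spread per gene for all groups. Embryonic stem cell markers (10 of 10 listed in the table) summed to 51834 to 52740.5 normalized reads in the untreated control and 54106 to 55537 in the IAA control. They summed to 59192 to 63256 in the wild-type CTCF line and 58691 to 61498 in the mutated CTCF line. Single markers went both ways between the untreated and the IAA control: Tfcp2l1 from 13254 and 13623 to 18050 and 19112, and Fgf4 from 1480 and 1527 to 983 and 1082. Of the fibroblast feeder markers 0 of 8 were listed. The trophectoderm markers listed (5 of 8) summed to 914 to 1003 in the wild-type CTCF libraries and 640.3 to 715 in the others, most of it Tfap2c (796 and 879 in the wild-type CTCF libraries), with Krt8 and Krt18 at 5.50 to 20.9 in every library. Mesoderm markers (2 of 6) summed to 89.2 to 93.1 with wild-type CTCF and 42.8 to 69.0 elsewhere. Most of this sum was Eomes (80.4 and 82.4 with wild-type CTCF), which is also counted among the trophectoderm markers, so these sums are not separate. Neural markers (2 of 6) summed to 156 to 159 in the untreated control and 221 to 284 in all libraries with IAA. Primitive endoderm markers (4 of 7) summed to 195 to 228 in the untreated control and 233 to 331 with IAA, while Gata6 alone was 64.4 and 90.5 in the untreated control and 39.7 to 59.4 with IAA. Among the markers without a row were Sox17, Sox7, Foxa2, Cdx2, Elf5, Hand1, Mixl1, Mesp1, Tbx6, Sox1, Tubb3 and Neurog1. The part of such cells in the results below was not tested, and in these bulk samples fewer cells of a type and less RNA per cell cannot be told apart.

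Changes at imprinted genes went in either direction in each of the 4 main comparisons. A gene is called here when its adjusted p-value in the limma fit over all 15818 tested genes is below 0.05. Fold changes are differences of mean log2(normalized reads + 1), which understates the change of genes with low values, and the standard error (SE) of a gene's fold change, on 2 libraries a group, is the same in every comparison. The libraries of the groups compared did not overlap at 64.4% to 71.5% of all genes, so non-overlap alone is common here. The IAA comparison in the control line joins 12 h of IAA with any degradation of tagged CTCF. With IAA there, 8 of the 33 tested imprinted genes were higher and 9 lower (51.5% called, beside 37.7% of all genes). Of all genes, 19.4% were called higher and 18.4% lower. The imprinted genes had a median log2 fold change of -0.0069, beside -0.0017 for all genes.

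With wild-type CTCF against the IAA control, 12 imprinted genes were higher and 5 lower (51.5%, beside 31.6% of all genes, with 21.5% of all genes higher). This split was 12 higher and 8 lower after median-of-ratios rescaling, where 5060 of all genes were called instead of 4991. Without the mean-variance trend 10 imprinted genes were called (30.3%, beside 15.0% of all genes). With mutated CTCF against the IAA control, 11 were higher and 9 lower (60.6%, beside 34.3% of all genes, 22.0% higher and 12.4% lower), and 11 higher and 12 lower under both rescalings. Of all genes, 5390 were then called with median-of-ratios rescaling and 5591 with equal totals, instead of 5433. The imprinted genes' median log2 fold change was 0.11 for the wild-type form, where all genes had 0.057, and -0.036 for the mutated form, where all genes had 0.055. Mutated against wild-type CTCF, which compares the lines carrying these forms, gave 5 higher and 13 lower imprinted genes (54.5%, beside 34.7% of all genes, 16.3% higher and 18.4% lower), with a median of -0.19 beside -0.0087. The IAA control enters the first 3 of these comparisons, so their values are set side by side and not counted as separate evidence.

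Set against cells without IAA, the wild-type line had 13 imprinted genes higher and 5 lower (54.5%, beside 43.2% of all genes, 27.6% higher and 15.6% lower). The mutated line had 7 higher and 8 lower (45.5%, beside 37.8% of all genes, 24.0% higher and 13.7% lower). The imprinted genes' median absolute log2 fold change was 0.21 for the wild-type line (0.22 for all genes) and 0.15 for the mutated line (0.19). The larger shares called here were thus not larger changes. In the 4 main comparisons this median was 0.20 to 0.35, above the 0.17 to 0.19 of all genes. Without the mean-variance trend the mutated line's count was 6 (18.2%, beside 24.5% of all genes), below the share of all genes. The splits depended on the scale between libraries: 10 higher and 7 lower for wild-type CTCF under both rescalings, and 5 and 12 or 4 and 13 for mutated CTCF with median-of-ratios rescaling or equal totals. Of all genes, 7046 and 7075 were called under these rescalings for wild-type CTCF, instead of 6828. For mutated CTCF they were 6026 and 6013, instead of 5975. Without untreated replicate 1 the wild-type count was 11 (8 higher and 3 lower). Fewer of all genes were called in that fit too. Of the 33 imprinted genes, 28 (84.8%) were called in at least 1 of the 6 comparisons, as were 73.3% of all genes. Airn, Inpp5f, Phlda2, Tssc4 and Ube3a were called in none.

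**Figure D1:**
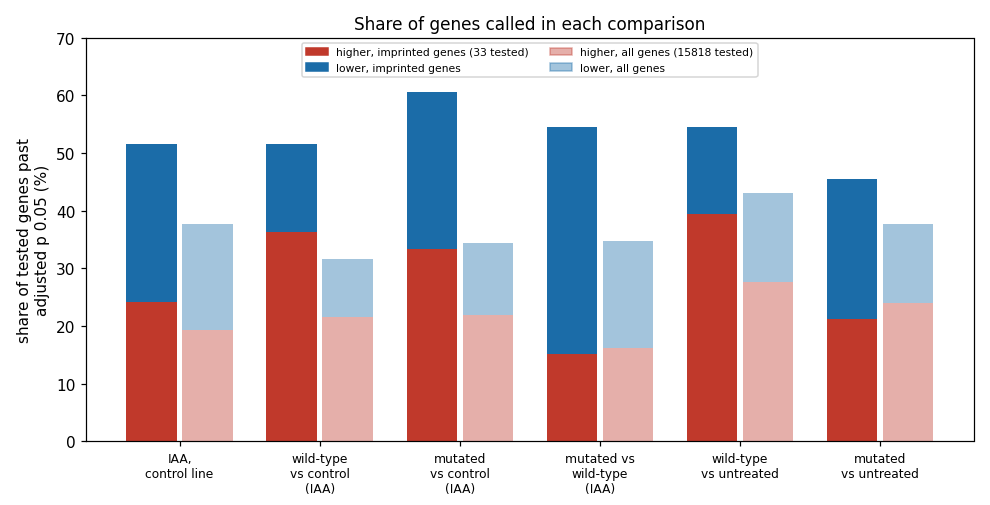
Share of genes past an adjusted p of 0.05 in each of the 6 comparisons, in percent (vertical axis), as stacked bars of higher (red) and lower (blue) genes, for the 33 tested imprinted genes (dark) and all 15818 tested genes (pale). The imprinted genes' share lies between 45.5% and 60.6% and that of all genes between 31.6% and 43.2%.

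The noncoding RNAs of the Dlk1-Meg3 cluster, transcribed from the maternal chromosome, fell with IAA and were higher with either CTCF form. Meg3, a long noncoding RNA (ENSMUSG00000021268.17, chromosome 12, 109541001 to 109571726, plus strand, GRCm38), had 1265 and 1222 normalized reads in the untreated control and 986 and 1001 in the IAA control. It had 1603 and 1609 in the wild-type CTCF line and 1322 and 1370.2 in the mutated CTCF line. The 4 groups did not overlap, with the IAA control lowest and the wild-type CTCF line highest. Meg3 fell by 0.32 on the log2 scale with IAA (SE 0.052, adjusted p = 2.6e-06), and exceeded the IAA control by 0.69 with the wild-type form (adjusted p = 6.6e-14) and by 0.44 with the mutated form (adjusted p = 8.4e-09).

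Mirg, a host transcript of microRNAs (ENSMUSG00000097391.8, 109729764 to 109749460, plus strand), followed the same order of means. It had 812 and 821 normalized reads without IAA, 603 and 615 with IAA, 994 and 1044 in the wild-type CTCF line and 801 and 867 in the mutated CTCF line. The untreated control and the mutated CTCF line overlapped, and the other groups stood apart. Its log2 fold change was -0.42 with IAA (SE 0.062, adjusted p = 4.7e-07), 0.74 with wild-type CTCF (adjusted p = 1.6e-12) and 0.45 with mutated CTCF (adjusted p = 2e-07).

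Rian, which hosts small nucleolar RNAs of the C/D type (ENSMUSG00000097451.11, 109603940 to 109661716, plus strand), had 5359 and 5634 normalized reads without IAA and 4062 and 4263 with IAA. It had 5857 and 6089 in the wild-type CTCF line and 5971 and 5822 in the mutated CTCF line. The IAA control was again lowest, and the libraries of the CTCF forms overlapped. Rian changed by -0.40 with IAA (SE 0.037, adjusted p = 7.6e-12), 0.52 with wild-type CTCF (adjusted p = 1.4e-14) and 0.50 with mutated CTCF (adjusted p = 3.3e-14).

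The wild-type and mutated CTCF lines differed at Meg3 and Mirg, and Rian gave no call. Mutated minus wild-type CTCF was -0.26 at Meg3 (SE 0.052, adjusted p = 0.00014) and -0.29 at Mirg (SE 0.062, adjusted p = 0.00028). At Rian the difference was -0.02 (95% interval -0.09 to 0.06, adjusted p = 0.73). Against the untreated control, wild-type CTCF was higher by 0.37 at Meg3 (adjusted p = 1.9e-07) and by 0.32 at Mirg (adjusted p = 5.3e-05), while mutated CTCF gave 0.11 (adjusted p = 0.078) and 0.03 (adjusted p = 0.75). Each of these calls held in all 13 alternatives run.

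Mature microRNAs are processed from these transcripts, and the capitals below mark the seed, bases 2 to 8, which pairs with target messages. RefSeq (GRCm38.p6) placed 26 mature microRNAs within Mirg on its own strand, 6 within Rian and 3 within Meg3. The host RNA was measured, not the mature microRNAs. Shown are 3 microRNAs of Mirg with different seeds, and 2 that share the seed GGUUGCC with each other.
mmu-miR-134-5p: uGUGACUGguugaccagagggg
mmu-miR-382-5p: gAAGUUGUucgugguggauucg
mmu-miR-410-3p: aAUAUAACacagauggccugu
mmu-miR-453: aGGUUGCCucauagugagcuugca
mmu-miR-496a-5p: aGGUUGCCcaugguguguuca

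The promoter of Meg3 is shown as the start of a noncoding RNA of this cluster. The window runs from 250 bases before to 50 bases after the first of 2 starts in RefSeq, at chr12:109540746-109541045 on the plus strand (GRCm38.p6), and has no capitals because it held no match to the CTCF motif searched below.
Meg3 promoter: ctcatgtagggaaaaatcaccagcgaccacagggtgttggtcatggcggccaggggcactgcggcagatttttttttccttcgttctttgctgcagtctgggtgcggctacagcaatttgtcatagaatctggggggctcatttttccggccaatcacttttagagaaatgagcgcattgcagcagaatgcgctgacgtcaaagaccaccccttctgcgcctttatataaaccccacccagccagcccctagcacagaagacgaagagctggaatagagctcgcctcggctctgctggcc

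In the Kcnq1ot1 cluster on chromosome 7, Cd81 fell with IAA, and Kcnq1 was called in the 3 comparisons that include the mutated CTCF line and in none of the others. Kcnq1ot1, the paternally transcribed noncoding RNA that starts inside the control region and silences genes on its chromosome (ENSMUSG00000101609.2, 143203458 to 143296549, minus strand), had 5993 and 6452 normalized reads without IAA and 5965 and 6038 with IAA. It had 6691 and 6620.0 in the wild-type CTCF line and 5693 and 5809 in the mutated CTCF line. The mutated CTCF libraries were lowest and the wild-type ones highest. Mutated minus wild-type CTCF was -0.21 (SE 0.035, adjusted p = 8.4e-06) and held in all 13 alternatives.

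Kcnq1ot1 was not called with IAA (-0.05, 95% interval -0.12 to 0.02, adjusted p = 0.27). With wild-type CTCF it was 0.15 higher than in the IAA control (adjusted p = 0.0012). That value became 0.09 with median-of-ratios rescaling, and the call was lost without the mean-variance trend, the only one of 13 alternatives to end it (largest adjusted p = 0.11).

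Kcnq1, a potassium channel subunit (ENSMUSG00000009545.14, 143106362 to 143427042, plus strand), had 219.8 and 234 normalized reads without IAA and 228 and 233 with IAA. It had 225 and 230.0 in the wild-type CTCF line, and 373 and 407 in the mutated CTCF line. The first 3 groups overlapped and both mutated CTCF libraries lay above all 6 others. Mutated CTCF was higher than wild-type CTCF by 0.78 (SE 0.097, adjusted p = 2.8e-08), higher than the IAA control by 0.76 (adjusted p = 5e-08) and higher than the untreated control by 0.78 (adjusted p = 1.8e-08), in all 13 alternatives each. The IAA effect was 0.02 (95% interval -0.17 to 0.22, adjusted p = 0.89) and the wild-type CTCF effect -0.02 (95% interval -0.21 to 0.18, adjusted p = 0.91).

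Kcnq1ot1 lies inside the body of Kcnq1 on the opposite strand, over 93092 bases. The labels describe strand-specific libraries, but whether reads were counted by strand is not given in the sources used here, so reads of these genes cannot be told apart from the table alone. The Kcnq1ot1 promoter, at chr7:143296498-143296797 on the minus strand (GRCm38.p6), is shown because it is the start of the silencing RNA. It too held no match to the motif.
Kcnq1ot1 promoter: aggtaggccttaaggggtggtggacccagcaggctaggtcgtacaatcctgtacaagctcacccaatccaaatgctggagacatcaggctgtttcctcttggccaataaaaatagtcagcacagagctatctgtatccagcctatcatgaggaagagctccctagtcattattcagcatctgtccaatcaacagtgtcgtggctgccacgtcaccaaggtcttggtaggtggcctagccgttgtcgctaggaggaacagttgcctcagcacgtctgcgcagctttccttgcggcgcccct

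Cd81, a tetraspanin of the cell surface (ENSMUSG00000037706.17, 143052739 to 143067934, plus strand), had 925 and 935 normalized reads without IAA and 611 and 616 with IAA. It had 925 and 1024 in the wild-type CTCF line and 796 and 882 in the mutated CTCF line. The IAA control lay below every other library. Cd81 fell by 0.60 on the log2 scale with IAA (SE 0.064, adjusted p = 3.8e-10) and was higher by 0.66 with wild-type CTCF (adjusted p = 7.2e-11) and by 0.45 with mutated CTCF (adjusted p = 4.4e-07).

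The difference between the CTCF forms at Cd81 was less firm. Mutated minus wild-type CTCF was -0.22 (SE 0.064, adjusted p = 0.0073), and the groups did not overlap. It passed in 10 of 13 alternatives (largest adjusted p = 0.17), failing without wild-type replicate 2 (-0.14), without mutated replicate 1 (-0.14) and without the mean-variance trend. The antisense transcript R74862, which overlaps Cd81 by 948 bases, had 160.5 and 165 normalized reads without IAA, 61.9 and 81.4 with IAA, 78.7 and 62.0 in the wild-type CTCF line and 124 and 119.6 in the mutated CTCF line. The wild-type CTCF effect at R74862 was -0.02 (SE 0.16, adjusted p = 0.93).

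Nap1l4, a histone chaperone (ENSMUSG00000059119.9, 143513579 to 143549106, minus strand), had 2619 and 2653 normalized reads without IAA and 2616 and 2529.7 with IAA. It had 2986 and 3100.3 in the wild-type CTCF line and 2909 and 2926 in the mutated CTCF line. The libraries of both CTCF forms lay above all control libraries. Nap1l4 was higher than in the IAA control by 0.24 with wild-type CTCF (SE 0.041, adjusted p = 1.4e-05) and by 0.18 with mutated CTCF (adjusted p = 0.00054).

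The other genes of the cluster had low values. Cdkn1c, an inhibitor of cyclin-dependent kinases (ENSMUSG00000037664.13, 143458339 to 143461050, minus strand), had 10.9 and 5.17 normalized reads without IAA, 16.7 and 19.8 with IAA, 21.0 and 20.3 in the wild-type CTCF line and 10.4 and 12.9 in the mutated CTCF line. These values rest on 6 to 24 implied reads a library. Its IAA effect was 1.16 (SE 0.37, adjusted p = 0.011) and passed in 10 of 12 alternatives (largest adjusted p = 0.23). It failed without untreated replicate 2 (0.69) and without IAA-control replicate 2 (1.05), and was 0.66 with a pseudocount of 10.

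Slc22a18, a membrane transporter (ENSMUSG00000000154.16, 143473736 to 143499334, plus strand), had 43.5 and 54.3 normalized reads without IAA, 31.0 and 29.7 with IAA, 43.7 and 57.8 in the wild-type CTCF line and 36.6 and 52.4 in the mutated CTCF line. The IAA control was lowest. Its IAA effect was -0.66 (SE 0.23, adjusted p = 0.020) and its wild-type CTCF effect 0.71 (adjusted p = 0.016), each passing in 8 of 12 alternatives (largest adjusted p = 0.22 and 0.20). The IAA call was lost without the trend and without untreated replicate 2 (-0.51), IAA-control replicate 1 (-0.69) or IAA-control replicate 2 (-0.63). The wild-type call was lost without the trend and without IAA-control replicate 1 (0.74), IAA-control replicate 2 (0.68) or wild-type replicate 2 (0.51).

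Phlda2, a growth-restraining gene of the placenta (ENSMUSG00000010760.5, 143501545 to 143503150, minus strand), had 16.7 and 12.1 normalized reads without IAA, 11.9 and 13.2 with IAA, 13.99 and 11.8 in the wild-type CTCF line and 15.7 and 16.8 in the mutated CTCF line. Tssc4 (ENSMUSG00000045752.13, 143069249 to 143071093, plus strand) had 50.2 and 52.6 without IAA, 60.7 and 66.0 with IAA, 71.7 and 68.5 in the wild-type CTCF line and 56.4 and 52.4 in the mutated CTCF line. Neither was called in any comparison. The IAA effect at Phlda2 was -0.17 (95% interval -0.88 to 0.54, adjusted p = 0.74), a range that holds changes in either direction.

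In the Grb10 cluster on chromosome 11, Grb10 was lower than the IAA control in the wild-type CTCF line and higher in the mutated CTCF line. Grb10, an adaptor that restrains insulin and growth factor signalling (ENSMUSG00000020176.17, 11930508 to 12038683, minus strand), had 1931 and 1944 normalized reads without IAA and 2679 and 2815 with IAA. It had 2353 and 2449.9 in the wild-type CTCF line and 3155 and 3206 in the mutated CTCF line. The 4 groups did not overlap, and the untreated control was lowest. Grb10 rose by 0.50 with IAA (SE 0.043, adjusted p = 9.9e-13) and differed from the IAA control by -0.19 with the wild-type form (adjusted p = 0.00053) and by 0.21 with the mutated form (adjusted p = 0.00013).

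Mutated CTCF exceeded wild-type CTCF at Grb10 by 0.41 (SE 0.043, 95% interval 0.32 to 0.49, adjusted p = 5.5e-10), in all 13 alternatives. It exceeded the untreated control by 0.71 (adjusted p = 5.6e-17), where wild-type CTCF gave 0.31 (adjusted p = 1.5e-07). The wild-type decrease from the IAA control passed in 12 of 13 alternatives and failed without the mean-variance trend (largest adjusted p = 0.055).

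Ddc, the decarboxylase that makes dopamine and serotonin (ENSMUSG00000020182.16, 11814101 to 11898144, minus strand), had 982 and 1031 normalized reads without IAA and 942 and 894 with IAA. It had 951 and 1003 in the wild-type CTCF line and 730.3 and 785 in the mutated CTCF line. The mutated CTCF libraries lay below all others. The mutated minus wild-type difference at Ddc was -0.37 (SE 0.060, adjusted p = 5.7e-06) and the mutated CTCF effect -0.28 (adjusted p = 0.00033). At neighbouring Grb10 and Ddc the difference between the CTCF forms thus had opposite signs. Ddc overlaps the antisense gene 1700042O10Rik by 17199 bases, where mutated minus wild-type CTCF was -0.67. As with Kcnq1 and Kcnq1ot1, reads of Ddc and this antisense gene cannot be told apart.

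Of the Peg13 cluster on chromosome 15 the table held Trappc9, a subunit of a vesicle-tethering complex whose intron contains Peg13 on the same strand (ENSMUSG00000047921.17, 72589620 to 73061204, minus strand). Trappc9 had 4122 and 4116 normalized reads without IAA and 3178 and 3384 with IAA. It had 3101 and 3168 in the wild-type CTCF line and 3658 and 3798 in the mutated CTCF line. The untreated control was highest, and the mutated CTCF line lay between it and the other groups. Trappc9 fell by 0.33 with IAA (SE 0.040, adjusted p = 8.1e-09), and mutated exceeded wild-type CTCF by 0.25 (adjusted p = 3.3e-06). The wild-type CTCF effect was -0.07 (95% interval -0.15 to 0.01, adjusted p = 0.22). The mutated CTCF effect was 0.18 (adjusted p = 0.00030), which failed without the mean-variance trend, 1 of 13 alternatives (largest adjusted p = 0.060).

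**Figure D2:**
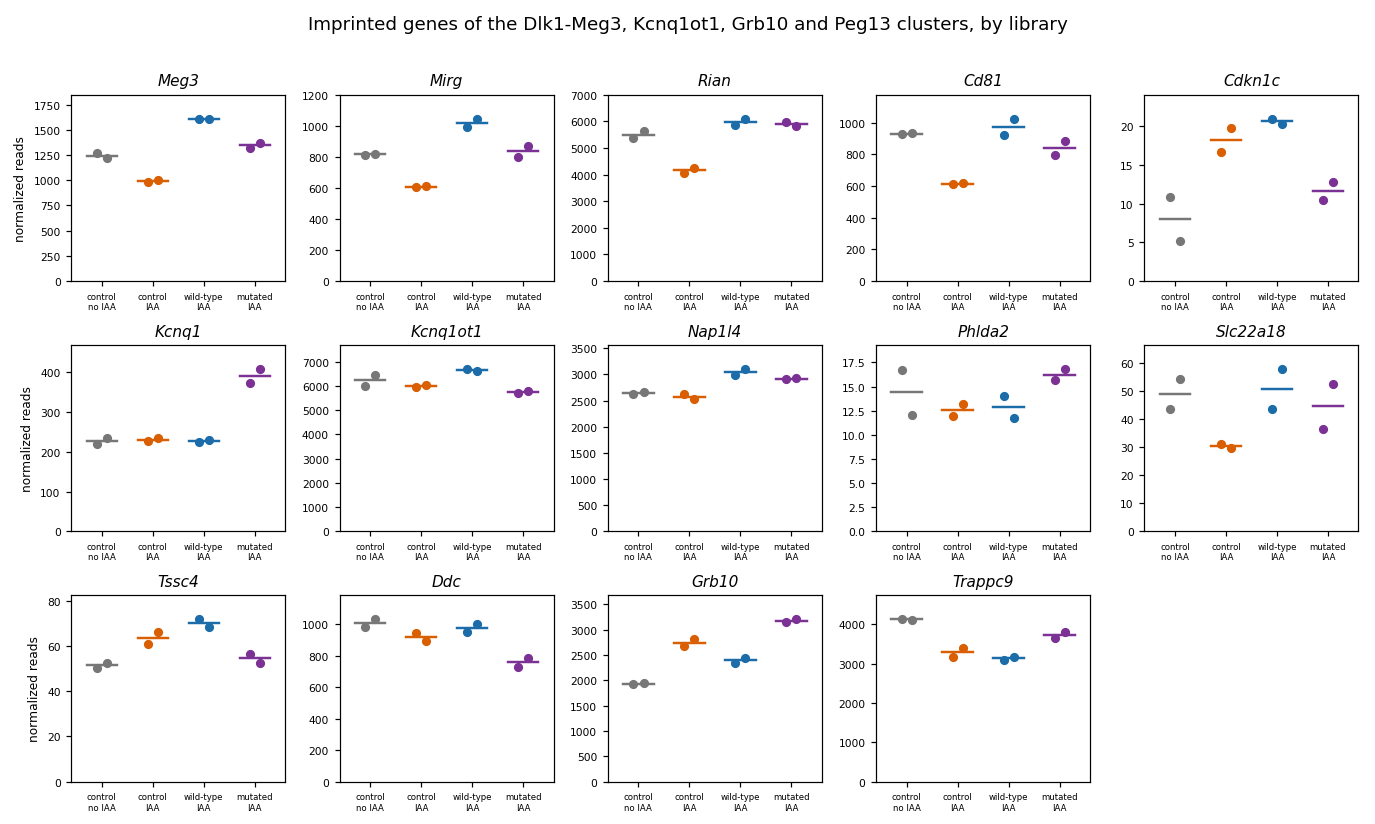
Normalized reads (vertical axes, from 0) of the 14 imprinted genes in the 4 clusters with a reported CTCF-bound control region, 1 panel per gene. Points are libraries and bars the mean of 2, by group. Meg3, Mirg, Rian and Cd81 were lowest in the IAA control, Kcnq1 stood apart in the mutated CTCF line at 373 and 407, and Grb10 was highest there at 3155 and 3206.

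Outside these clusters, Peg3 rose with IAA and was lower again with either CTCF form. Peg3, a zinc finger protein (ENSMUSG00000002265.17, chromosome 7, 6703892 to 6730431, minus strand), had 425 and 497 normalized reads without IAA and 735 and 734 with IAA. It had 531 and 579.8 in the wild-type CTCF line and 458 and 507 in the mutated CTCF line. The IAA control lay above all other libraries. Peg3 rose by 0.68 with IAA (SE 0.077, adjusted p = 2.1e-09), and its difference from the IAA control was -0.40 in the wild-type line (adjusted p = 8.1e-05) and -0.61 in the mutated line (adjusted p = 4.4e-08).

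The CTCF forms differed at Peg3 by -0.20, mutated minus wild-type (adjusted p = 0.037). This passed in 9 of 13 alternatives (largest adjusted p = 0.32). It failed without wild-type replicate 2 (-0.14), without mutated replicate 1 (-0.13), without the trend and with only the 2 groups compared.

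Usp29, of the ubiquitin-specific protease family (ENSMUSG00000051527.11, 6730578 to 6967219, plus strand), starts beside Peg3 and runs the other way. It had 60.2 and 71.5 normalized reads without IAA, 71.5 and 69.3 with IAA, 43.7 and 49.2 in the wild-type CTCF line and 40.7 and 32.6 in the mutated CTCF line. The libraries of both CTCF forms lay below those of the control line. The mutated CTCF effect against the IAA control at Usp29 was -0.93 (SE 0.20, adjusted p = 0.00031), in all 13 alternatives.

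The wild-type CTCF effect at Usp29 was -0.59 (adjusted p = 0.022), a call that held in 10 of 13 alternatives (largest adjusted p = 0.11). It failed without IAA-control replicate 1 (-0.57), IAA-control replicate 2 (-0.61) or wild-type replicate 1 (-0.51). Its IAA effect was 0.10 (95% interval -0.31 to 0.50, adjusted p = 0.74). Zim1, a zinc finger gene of the same cluster, had a mean of 7.21 normalized reads without IAA, 11.5 with IAA, 11.7 in the wild-type CTCF line and 6.07 in the mutated CTCF line and was not tested.

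Plagl1, a zinc finger transcription factor (ENSMUSG00000019817.18, chromosome 10, 13060504 to 13131694, plus strand), was likewise highest in the IAA control. It had 776 and 831 normalized reads without IAA, 1073 and 999.8 with IAA, 829 and 827 in the wild-type CTCF line and 687 and 708 in the mutated CTCF line. The groups at either end stood apart, the mutated CTCF line being lowest. Plagl1 rose by 0.37 with IAA (SE 0.061, adjusted p = 5.7e-06), and differed from the IAA control by -0.32 in the wild-type line (adjusted p = 7.7e-05) and by -0.57 in the mutated line (adjusted p = 1e-09). Mutated minus wild-type CTCF was -0.25 (adjusted p = 0.0016), and these 4 calls held in all 13 alternatives.

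Sfmbt2, a Polycomb protein (ENSMUSG00000061186.15, chromosome 2, 10370510 to 10595253, plus strand), separated the CTCF forms. It had 2051 and 2136 normalized reads without IAA and 3006 and 2833 with IAA. It had 3108 and 3187 in the wild-type CTCF line and 2196 and 2152 in the mutated CTCF line. The mutated CTCF line lay beside the untreated control, and the wild-type line beside the IAA control. Sfmbt2 rose by 0.48 with IAA (SE 0.043, adjusted p = 5e-12), and mutated minus wild-type CTCF was -0.53 (adjusted p = 5.5e-13), in all 13 alternatives. Wild-type CTCF against the IAA control gave 0.11 (95% interval 0.02 to 0.20, adjusted p = 0.0505), and mutated CTCF against the untreated control gave 0.05 (95% interval -0.03 to 0.14, adjusted p = 0.34).

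In the Peg10 cluster on chromosome 6, Ppp1r9a had the largest IAA effect of the members with a mean over 50. Ppp1r9a, the actin-binding protein neurabin (ENSMUSG00000032827.15, 4902917 to 5165661, plus strand), had 845 and 895 normalized reads without IAA and 376 and 364 with IAA. It had 557 and 577 in the wild-type CTCF line and 492 and 466 in the mutated CTCF line. The 4 groups did not overlap, and no library with IAA reached the untreated level. Ppp1r9a fell by 1.23 on the log2 scale with IAA (SE 0.071, adjusted p = 1e-17), a fold of 0.43. It was higher than in the IAA control by 0.61 with wild-type CTCF (adjusted p = 7.7e-09) and by 0.37 with mutated CTCF (adjusted p = 6.7e-05).

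Against the untreated control Ppp1r9a was lower in both lines, with -0.62 for the wild-type form (adjusted p = 3.1e-09) and -0.86 for the mutated form (adjusted p = 6.6e-13). Mutated minus wild-type CTCF was -0.24 (adjusted p = 0.0068) and passed in 11 of 13 alternatives (largest adjusted p = 0.073). It failed without wild-type replicate 2 (-0.22) or mutated replicate 2 (-0.20).

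Sgce, a sarcoglycan of the membrane (ENSMUSG00000004631.15, 4674350 to 4747207, minus strand), had 12 and 30 implied reads in the untreated libraries, a mean of 17.9 normalized reads, and 36.9 and 35.2 with IAA, 43.7 and 43.9 in the wild-type CTCF line and 17.8 and 24.7 in the mutated CTCF line. It is named, as are Peg12, Ndn and Mest below, after its values were seen. Its IAA effect of 1.11 (SE 0.30, adjusted p = 0.0033) fell to 0.46 without untreated replicate 1 and was 1.75 without untreated replicate 2. It passed in 10 of 12 alternatives (largest adjusted p = 0.29), failing without untreated replicate 1 and without the trend.

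The difference between the CTCF forms at Sgce was -1.03 (adjusted p = 0.0070) and passed in 10 of 12 alternatives (largest adjusted p = 0.13), failing without the trend and without mutated replicate 1 (-0.80). Mutated CTCF against the IAA control gave -0.75 (adjusted p = 0.0496) and passed in only 6 of 12 (largest adjusted p = 0.27), with losses without IAA-control replicate 1 (-0.72), IAA-control replicate 2 (-0.79) or mutated replicate 1 (-0.53). Peg10, which starts next to Sgce on the opposite strand, had 8.36 and 12.1 normalized reads without IAA, 4.76 and 0 with IAA, 22.7 and 20.3 in the wild-type CTCF line and 7.31 and 2.97 in the mutated CTCF line, and was not tested.

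In the Snrpn cluster on chromosome 7, Peg12, Ndn and Ube3a each took a different course. Peg12 (ENSMUSG00000070526.2, 62461871 to 62464510, minus strand) had 40.1 and 37.9 normalized reads without IAA and 21.4 and 23.1 with IAA. It had 40.2 and 49.2 in the wild-type CTCF line and 48.1 and 52.4 in the mutated CTCF line. The IAA control was lowest and stood apart from every other library. Peg12 was higher than in the IAA control by 0.97 with wild-type CTCF (SE 0.23, adjusted p = 0.0012) and by 1.14 with mutated CTCF (adjusted p = 0.00013), in all 12 alternatives. Its IAA effect was -0.78 (adjusted p = 0.0061) and passed in 11 of 12 alternatives, failing without untreated replicate 1 (-0.74, largest adjusted p = 0.054).

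Ndn, which encodes necdin (ENSMUSG00000033585.5, 62346569 to 62350262, plus strand), had 14.2 and 12.1 normalized reads without IAA, 20.2 and 18.7 with IAA, 14.9 and 22.5 in the wild-type CTCF line and 10.4 and 6.92 in the mutated CTCF line. The mutated CTCF line was lowest. The difference between the CTCF forms was -1.02 (SE 0.35, adjusted p = 0.023), and mutated CTCF against the IAA control -1.10 (adjusted p = 0.013). Each passed in 10 of 12 alternatives (largest adjusted p = 0.25 and 0.14). The first failed without wild-type replicate 2 (-0.74) or mutated replicate 2 (-0.75), and the second without IAA-control replicate 1 (-1.05) or mutated replicate 2 (-0.84). With a pseudocount of 10 they were -0.61 and -0.66. Gm32061, on the opposite strand, overlaps Ndn by 3694 bases, and mutated minus wild-type CTCF was 0.55 there. Reads of Ndn and Gm32061 cannot be told apart either.

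Ube3a, a ubiquitin ligase (ENSMUSG00000025326.12, 59228750 to 59311536, plus strand), ranged only from 8505 to 8993 normalized reads over the 8 libraries. Its IAA effect was -0.01 (95% interval -0.07 to 0.06, adjusted p = 0.91), and its effects in the other 5 comparisons lay between -0.04 and -0.02. Its antisense partner Snhg14, which overlaps it by 3613 bases, had 635 and 715 normalized reads without IAA, 831 and 857 with IAA, 608 and 595 in the wild-type CTCF line and 632 and 681 in the mutated CTCF line.

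Of the Mest cluster on chromosome 6, Mest, an enzyme of the hydrolase fold family (ENSMUSG00000051855.15, 30723547 to 30748465, plus strand), had 39.3 and 53.4 normalized reads without IAA, 64.3 and 39.6 with IAA, 59.4 and 76.0 in the wild-type CTCF line and 21.9 and 26.7 in the mutated CTCF line. Both mutated CTCF libraries lay below all others. The mutated minus wild-type difference was -1.44 (SE 0.24, adjusted p = 5.6e-06), a fold of 0.37, in all 12 alternatives. Mutated CTCF against the IAA control was -1.03 (adjusted p = 0.00059) and passed in 10 of 12 (largest adjusted p = 0.066), with -0.69 without IAA-control replicate 1, which ended the call, as did leaving out the trend.

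Mest hosts a microRNA on its own strand, shown with its seed in capitals.
mmu-miR-335-5p: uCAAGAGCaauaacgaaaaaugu

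Copg2, a coat protein of transport vesicles (ENSMUSG00000025607.15, 30747554 to 30896794, minus strand), overlaps the end of Mest by 912 bases. It had means of 3345 normalized reads without IAA, 3328 with IAA, 2944 in the wild-type CTCF line and 3075 in the mutated CTCF line. Its wild-type CTCF effect was -0.18 (SE 0.040, adjusted p = 0.00067), in 12 of 13 alternatives, the exception being the fit without the trend (largest adjusted p = 0.061). The mutated CTCF effect of -0.11 (adjusted p = 0.023) passed in 8 of 13 (largest adjusted p = 0.14). It was lost without the trend and without IAA-control replicate 1 (-0.11), IAA-control replicate 2 (-0.12), mutated replicate 1 (-0.13) or mutated replicate 2 (-0.10).

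Igf2r, the receptor that clears insulin-like growth factor from the cell surface (ENSMUSG00000023830.14, chromosome 17, 12682406 to 12769664, minus strand), ranged from 1278 to 1688 normalized reads. With wild-type CTCF it was 0.20 higher than in the IAA control (SE 0.053, adjusted p = 0.0029), passing in 11 of 13 alternatives (largest adjusted p = 0.11) and failing without the trend and without wild-type replicate 2 (0.14). Airn, the antisense RNA that silences Igf2r (ENSMUSG00000078247.5, 12741311 to 12860136, plus strand), overlaps it by 28354 bases and ranged from 226 to 268 normalized reads. Its effects in the 6 comparisons lay between -0.11 and 0.07, with none called.

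Impact, a regulator of translation (ENSMUSG00000024423.6, chromosome 18, 12955852 to 12992950, plus strand), had means of 1737 normalized reads without IAA, 2135 with IAA, 2513 in the wild-type CTCF line and 2032 in the mutated CTCF line. It rose with IAA by 0.30 (SE 0.049, adjusted p = 4e-06), and mutated minus wild-type CTCF was -0.30 (adjusted p = 4.1e-06), each in all 13 alternatives. Wild-type CTCF against the IAA control was 0.23 (adjusted p = 0.00030) in 11 of 13 alternatives (largest adjusted p = 0.081), and 0.14 without wild-type replicate 2, which ended the call, as did the fit without the trend.

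The other 5 genes outside these clusters had changes of at most 0.25 in the 4 main comparisons. Gnas, the stimulatory G protein subunit (ENSMUSG00000027523.20, chromosome 2, 174284320 to 174346744, plus strand), was 0.25 higher with mutated CTCF than in the IAA control (SE 0.066, adjusted p = 0.0023) and 0.22 higher than with wild-type CTCF (adjusted p = 0.0080). These values were 0.14 and 0.11 without mutated replicate 2, the second was 0.13 without wild-type replicate 1, and the first was 0.22 without IAA-control replicate 1. None of the values without those libraries passed (largest adjusted p = 0.16 and 0.29), and neither did either call without the trend. Gnas overlaps an antisense transcript by 11117 bases that the table names Gnasas1, whose Ensembl identifier is that of Nespas. Gnasas1 had means of 972 normalized reads without IAA, 1099 with IAA, 1154 in the wild-type CTCF line and 1005 in the mutated CTCF line.

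Blcap (ENSMUSG00000067787.10, chromosome 2, 157556362 to 157571274, minus strand) rose by 0.21 with IAA (SE 0.069, adjusted p = 0.016), in 10 of 13 alternatives (largest adjusted p = 0.31). It was not called without the trend, without untreated replicate 1 (0.17) or without IAA-control replicate 2 (0.11). Mutated CTCF exceeded the untreated control at Blcap by 0.38 (SE 0.069, adjusted p = 2.6e-05), in all 13 alternatives. Its difference between the CTCF forms, 0.18 (adjusted p = 0.037), passed in 7 of 13 (largest adjusted p = 0.19) and failed without any one of wild-type replicate 1 (0.16), wild-type replicate 2 (0.20), mutated replicate 1 (0.21) or mutated replicate 2 (0.15).

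H13, a signal peptide peptidase (ENSMUSG00000019188.16, chromosome 2, 152669461 to 152708670, plus strand), was -0.19 with IAA (SE 0.059, adjusted p = 0.011), which passed in 9 of 13 alternatives (largest adjusted p = 0.25). It failed without the trend, untreated replicate 1 (-0.20), untreated replicate 2 (-0.18) or IAA-control replicate 1 (-0.11). With wild-type CTCF it was 0.23 (adjusted p = 0.0028), and 0.15 without IAA-control replicate 1, which ended the call (11 of 13, largest adjusted p = 0.12). Zrsr1 (ENSMUSG00000044068.7, chromosome 11, 22972005 to 22976496, plus strand) was called only against the untreated control, at -0.26 with wild-type CTCF (SE 0.093, adjusted p = 0.020), where it passed in 9 of 13 alternatives (largest adjusted p = 0.16). It failed without the trend, untreated replicate 1 (-0.22), untreated replicate 2 (-0.30) or wild-type replicate 1 (-0.25). Inpp5f, an inositol phosphatase (ENSMUSG00000042105.18, chromosome 7, 128611328 to 128696425, plus strand), ranged from 1084 to 1178 normalized reads and was called nowhere.

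Set against cells without IAA, the wild-type line was higher at Sfmbt2 by 0.59 (SE 0.043, adjusted p = 2.5e-14) and at Impact by 0.53 (SE 0.049, adjusted p = 1.2e-11), and its difference at Trappc9 was -0.39 (SE 0.040, adjusted p = 1.2e-10). The mutated line had -0.41 at Ddc (SE 0.060, adjusted p = 5.7e-07) and -0.83 at Usp29 (SE 0.20, adjusted p = 0.00094). These 5 calls held in all 13 alternatives. At Rian the differences from untreated cells, 0.12 for the wild-type form (adjusted p = 0.0074) and 0.10 for the mutated form (adjusted p = 0.026), became 0.04 and 0.02 with equal totals and did not pass (largest adjusted p over all alternatives 0.31 and 0.67). At Kcnq1ot1 the wild-type difference of 0.10 (adjusted p = 0.023) became 0.02 with equal totals and 0.04 without untreated replicate 1, and was lost in both (largest adjusted p = 0.68). The mutated difference there, -0.11 (adjusted p = 0.010), was larger with equal totals (-0.20, adjusted p = 1.4e-06) and was lost without untreated replicate 2 (-0.06, adjusted p = 0.23, the largest of its alternatives).

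**Figure D3:**
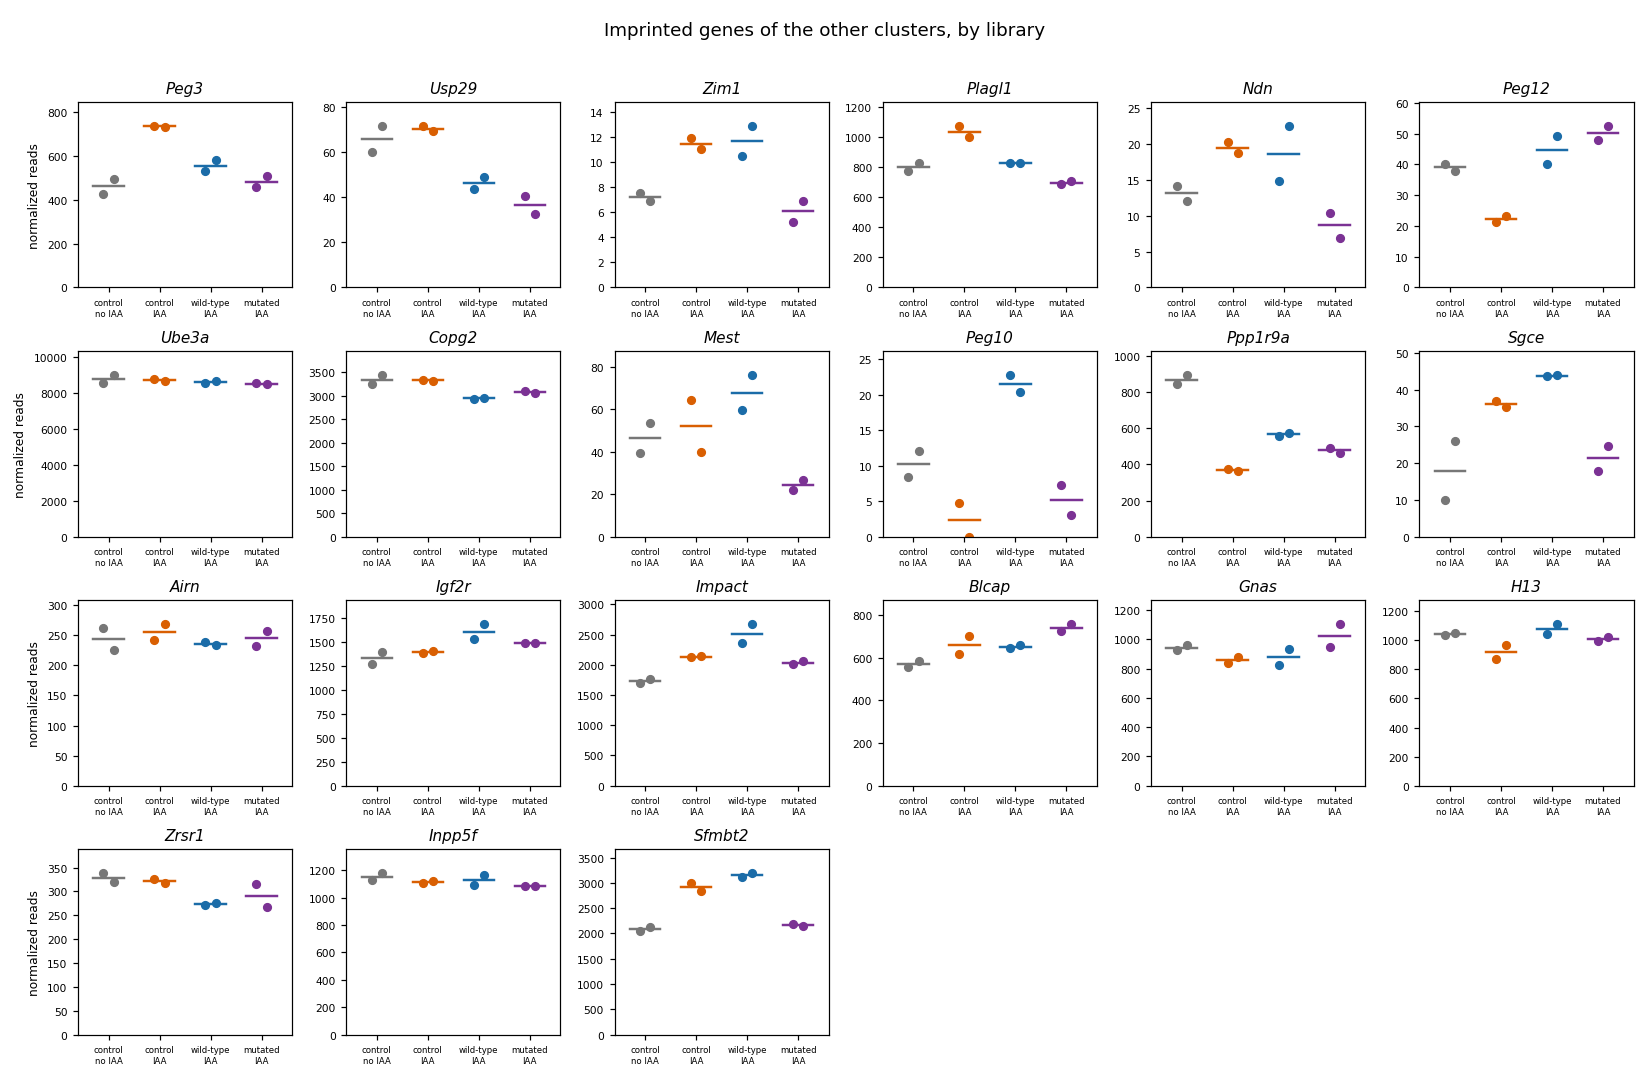
Normalized reads (vertical axes, from 0) of the 21 imprinted genes in the other clusters, 1 panel per gene. Points are libraries and bars the mean of 2, by group. Peg3 and Plagl1 were highest in the IAA control, Ppp1r9a was highest without IAA at 845 and 895, and Ube3a ranged only from 8505 to 8993.

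By cluster type, of the 14 genes in the 4 clusters with a reported CTCF-bound control region, 2 were higher and 6 lower with IAA (median -0.15), where 19.4% of all genes were higher and 18.4% lower. Of the 19 tested genes in the other clusters, 6 were higher and 3 lower (median 0.07). For the wild-type form the counts were 7 higher and 1 lower in the first group (median 0.16), and 5 and 4 in the second (median 0.03), beside 21.5% of all genes higher out of 31.6% called. For the mutated form they were 8 higher and 1 lower (median 0.28), and 3 higher and 8 lower (median -0.07), beside 22.0% and 12.4% of all genes. Between the CTCF forms they were 3 higher and 5 lower (median -0.20), and 2 higher and 8 lower (median -0.11), beside 16.3% and 18.4% of all genes. The 4 clusters hold several genes of 1 chromosomal stretch each, and the marking of clusters is not complete, so these counts describe the lists and the difference between them was not tested.

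**Figure D4:**
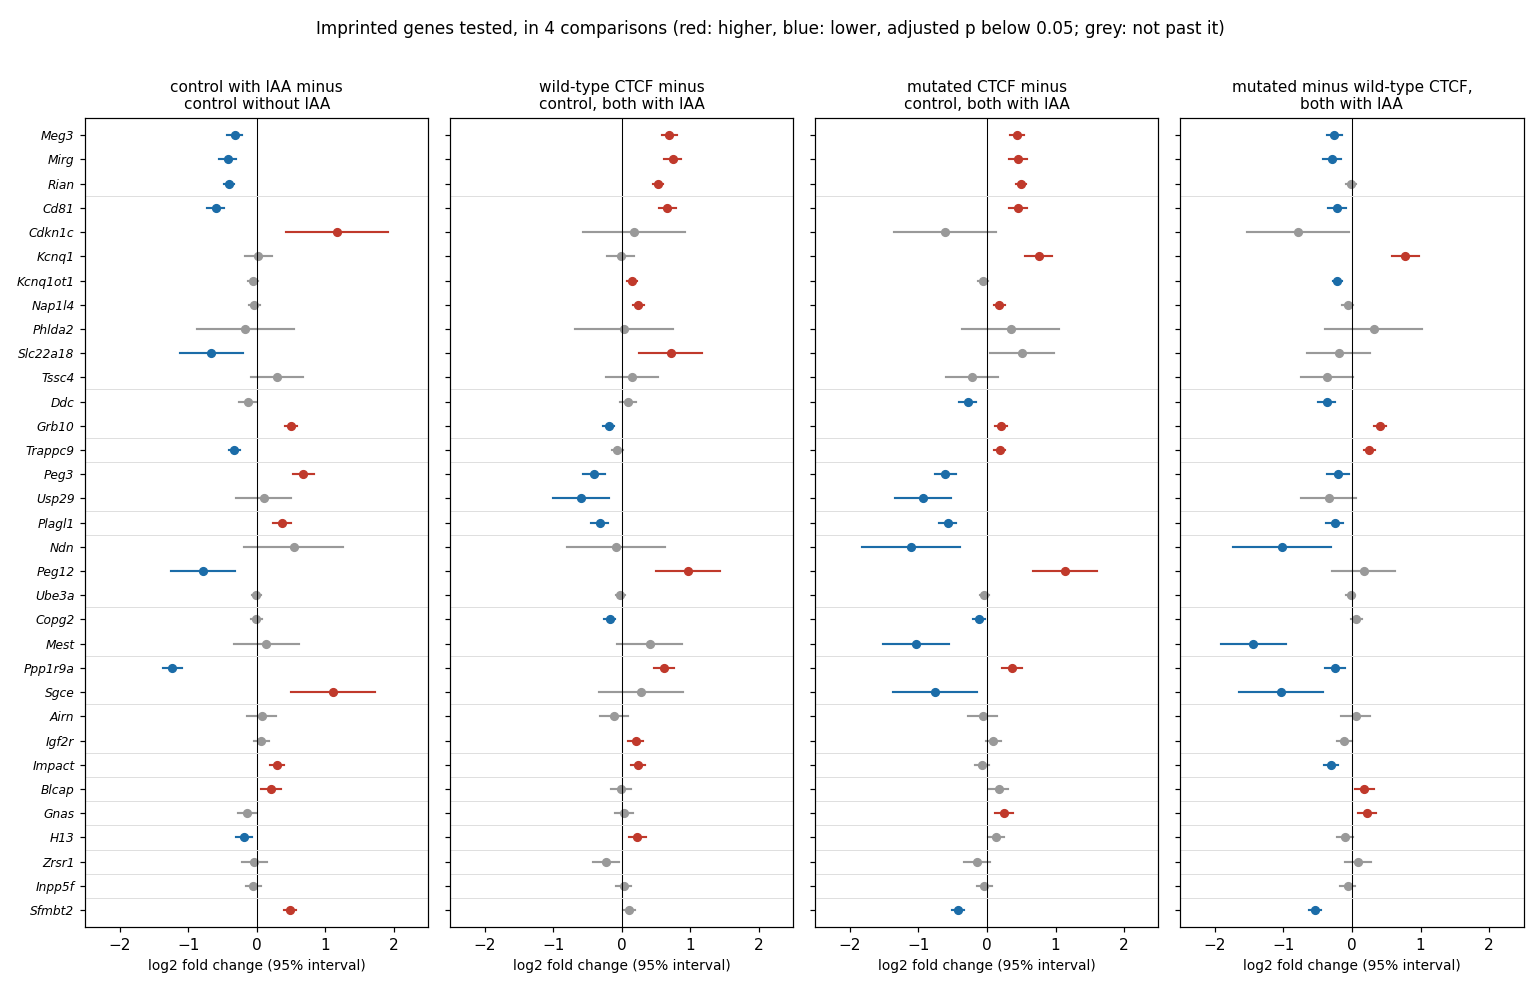
Log2 fold change (horizontal axes) with its 95% interval for the 33 tested imprinted genes, ordered by cluster, in 4 comparisons, red for higher, blue for lower and grey for no call. Meg3, Mirg, Rian and Cd81 are blue with IAA and red with each CTCF form, Kcnq1 is red only where mutated CTCF enters, and Grb10 is blue with wild-type and red with mutated CTCF.

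Promoters of the imprinted genes were searched for CTCF motif letters, since the study degrades CTCF. RefSeq (GRCm38.p6) gave 38 promoters of 300 bases for 28 of the 35 genes. The CTCF core consensus, a motif of 12 letters, was searched on both strands. It occurred in 1 of the 38, that of H13, and in 183 of all 32851 promoters (0.557%). A match is a description of letters and not of binding, and control regions away from the starts lie outside these windows. The H13 promoter, at chr2:152669211-152669510 on the plus strand, is shown with the matched letters in capitals. The match lies on the gene's own strand with its first base at -71 from the start.
H13 promoter: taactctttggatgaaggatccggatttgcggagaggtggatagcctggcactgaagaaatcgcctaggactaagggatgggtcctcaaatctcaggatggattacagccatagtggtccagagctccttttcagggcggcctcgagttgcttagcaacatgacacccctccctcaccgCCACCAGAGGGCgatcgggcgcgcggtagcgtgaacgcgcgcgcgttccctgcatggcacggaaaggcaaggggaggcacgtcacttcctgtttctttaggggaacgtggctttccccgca

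Among 26 further imprinted genes outside the list, 9 were higher and 3 lower with IAA (46.2% called, beside 37.7% of all genes; median 0.13). With wild-type CTCF 5 were higher and 4 lower (34.6%, beside 31.6% of all genes). With mutated CTCF the counts were 2 and 5 (26.9%, beside 34.3%), and mutated against wild-type CTCF 2 and 5 (26.9%, beside 34.7%). Against the untreated control the shares were 53.8% for wild-type CTCF (43.2% of all genes) and 42.3% for mutated CTCF (37.8%). Slc38a4, an amino acid transporter, had 507 and 572 normalized reads without IAA, 423 and 429 with IAA, 973 and 1019.5 in the wild-type CTCF line and 319 and 379.6 in the mutated CTCF line. Both wild-type CTCF libraries lay above all others. Wild-type CTCF exceeded the IAA control there by 1.22 (SE 0.079, adjusted p = 1e-15), and mutated minus wild-type CTCF was -1.52 (adjusted p = 9.9e-19), each in all 13 alternatives.

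Casd1, a sialic acid acetyltransferase near Sgce, had 345 and 384 normalized reads without IAA, 581 and 586 with IAA, 507 and 561 in the wild-type CTCF line and 360.5 and 332 in the mutated CTCF line. It rose with IAA by 0.68 (SE 0.080, adjusted p = 4.6e-09), and mutated minus wild-type CTCF was -0.62 (adjusted p = 5.8e-08), in all 13 alternatives. Atp10a, a phospholipid transporter of the Snrpn region, fell by 0.59 on the log2 scale with IAA (SE 0.12, adjusted p = 0.00017), and Qpct, a glutaminyl cyclase, was 0.64 higher with mutated than with wild-type CTCF (SE 0.10, adjusted p = 4.9e-06).

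Of 20 tested genes known for setting, keeping or reading imprints, 9 were higher and 4 lower with IAA (65.0% called, beside 37.7% of all genes). With wild-type CTCF 12 were higher and 3 lower (75.0%, beside 31.6%). With mutated CTCF the counts were 7 and 6 (65.0%, beside 34.3%), and mutated against wild-type CTCF 2 and 7 (45.0%, beside 34.7%). A larger share called was not a larger change here. The median absolute log2 fold change of these genes was 0.13 with IAA (0.19 for all genes) and 0.14 with wild-type CTCF (0.17). It was 0.13 with mutated CTCF (0.18) and 0.10 between the CTCF forms (0.18). With IAA, 1 of these genes was called with a change of size 1 or more, namely Dppa3. Dppa3, which protects maternal methylation in the early embryo, had 20.1 and 35.3 normalized reads without IAA, 100.1 and 114 with IAA, 65.6 and 57.8 in the wild-type CTCF line and 39.7 and 31.6 in the mutated CTCF line. It rose with IAA by 1.96 (SE 0.22, adjusted p = 1.9e-09) and differed from the IAA control by -1.57 with mutated CTCF (adjusted p = 4.6e-07), each in all 13 alternatives. Zfp57, the zinc finger protein that recognises methylated control regions, had means of 2315 normalized reads without IAA, 2802 with IAA, 2686 in the wild-type CTCF line and 3265 in the mutated CTCF line.

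Among 72 other genes within 250 kb of an imprinted gene of the list, 13 were higher and 13 lower with IAA (36.1%, beside 37.7% of all genes). The shares called were 31.9% with wild-type CTCF (31.6% of all genes), 30.6% with mutated CTCF (34.3%) and 33.3% between the CTCF forms (34.7%), all near or below those of all genes. Against the untreated control the neighbours' share was 37.5% for wild-type CTCF (43.2% of all genes). For mutated CTCF it was 43.1%, above the 37.8% of all genes. Tspan32os, a noncoding antisense gene upstream of Cd81, had 109 and 115 normalized reads without IAA, 31.0 and 20.9 with IAA, 62.9 and 76.0 in the wild-type CTCF line and 67.9 and 70.2 in the mutated CTCF line. It fell by 2.10 on the log2 scale with IAA (SE 0.19, adjusted p = 1.3e-11), in all 13 alternatives, and R74862 fell by 1.18 on the same scale (SE 0.16, adjusted p = 7.2e-08).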

How the data were processed

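Nascent RNA was profiled by TT-seq in 8 libraries, 2 in each of 4 groups assigned from the sample titles and characteristics. The authors deposited 1 table of normalized read signal for 16940 genes, whose entries in each library were multiples of 1 step (100% within 0.05 of a step). Values divided by the step are called implied reads in the text. Because the step of 1 mutated CTCF library was close to 1 (0.989), they were treated as an estimate and entered no test. They give a depth of 15671114 to 21561141 per library. All 16940 genes had at least 10 implied reads in at least 2 libraries. A gene or marker without a row may therefore be one with few reads. No molecular identifiers are mentioned, so counting error is the least error of a value. Per the submitters' processing notes, which give no roles or versions, Trim Galore, STAR, featureCounts, DESeq2 and mm10 were used; the counted feature and strand setting are not given in the sources used here. A shift common to all genes would not be seen on this scale.

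Genes with a mean of at least 10 were tested with limma 3.58.1 (R 4.3.3) on log2(value + 1), with 1 coefficient per group over all 8 libraries, empirical Bayes moderation with a mean-variance trend, and Benjamini-Hochberg adjustment over all 15818 tested genes within each of 6 comparisons (threshold 0.05). All adjusted p-values are from this fit or from its stated alternatives, and 95% intervals are moderated. Alternatives changed 1 step at a time: the pseudocount to 0.5 or 10; the filter to none or to a mean of 50; the scale to median-of-ratios or equal totals; the fit to no trend, to the 2 groups compared or to a replicate block; and the samples by dropping every library once. Values in every library are given for members with a mean of at least 50 that were called with a log2 fold change of size 0.5 or more in IAA, wild-type CTCF, mutated CTCF or mutated against wild-type CTCF, and for every member in a cluster with a reported CTCF-bound control region; other genes follow ranges or were named after their values were seen, and genes of the other lists that meet the same rule may be named. The members and the gene lists were chosen with earlier results of these data known. Same-numbered replicates did not deviate together: the mean correlation of their deviations across genes was 0.0037 (-0.022 to 0.028).

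Positions and overlaps are from GENCODE M21 on GRCm38, which mm10 names, matched by gene ID for all 35 genes. Promoter and microRNA sequences are from RefSeq (GRCm38.p6). Ctcf and Sox2 are not reported here, so the degraded gene was not checked in the libraries.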

Additional observations from a re-analysis of the deposited data

Results flagged for a closer look

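At Grb10 the overexpressed CTCF forms had effects of opposite sign against the IAA control. The rule for listing required both effects and the direct test of their difference to pass, so that pass is no separate support. The wild-type effect did not pass without the mean-variance trend (adjusted p = 0.055 in limma). Wild-type CTCF gave -0.19 and mutated CTCF 0.21 on the log2 scale, and mutated minus wild-type CTCF was 0.41 (SE 0.043, adjusted p = 5.5e-10 in limma), with both mutated libraries above both wild-type libraries, while libraries did not overlap in this comparison at 65.5% of all genes. The shared IAA control does not enter that difference. It ranged from 0.38 to 0.43 over 13 alternatives, each past the threshold (largest adjusted p = 0.0066).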

How the results depend on the processing

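Of 105 pairs of an imprinted gene and a comparison that were called, 0 changed sign under an alternative. Over 1349 recomputed values 1220 kept their call and 129 no longer passed, 36 of them in the fit without the mean-variance trend and the others mostly with 1 library left out. The number of imprinted genes called was 10 instead of 17 with wild-type CTCF, and 6 instead of 15 with mutated CTCF against the untreated control, in the fit without the trend, where 15.0% and 24.5% of all genes were called; the cause was not tested. With 1 library left out the counts were 14 to 16 with IAA, 14 to 17 with wild-type CTCF, 16 to 20 with mutated CTCF, 13 to 17 between the CTCF forms, 11 to 16 for wild-type CTCF and 12 to 14 for mutated CTCF against the untreated control, the 11 without untreated replicate 1, where fewer libraries enter. Each of these fits also called fewer of all genes than the fit on all 8 libraries. With the replicate block, which pairs samples by number only, the counts were 18, 19, 22, 18, 19 and 17 in the same order. No call was lost. The counts over all genes were then 6423, 5532, 5920, 5981, 7237 and 6397, instead of 5967, 4991, 5433, 5489, 6828 and 5975. With equal totals the IAA count was 21, of which 13 were lower. Of all genes 6668 were called there, instead of 5967, and their median log2 fold change was -0.053. The edgeR test was not run, because the implied reads are an estimate. Genes below about 50 normalized reads, among them Cdkn1c, Ndn, Phlda2 and Sgce, rest on few reads, and 2 libraries a group limit all of these tests.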
